A study of Mus musculus with 6 samples.

Results

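The insulin-like growth factor (IGF) family was followed through 10 genes: the ligand gene Igf1, the receptor genes Igf1r and Igf2r, and the IGF binding protein genes Igfbp1 to Igfbp7. The members were chosen by name, with earlier results of these data known. Each probe set whose annotation names exactly 1 of these genes was taken. This gave 27 probe sets for 10 of the 18193 genes that have a probe set of their own. A further probe set that names Igf2r together with another gene was left out. Of the 27, 24 passed a filter on low values (a mean log2 value of at least 4.68 over all arrays) and were tested, which covers 9 of the 10 genes and leaves Igfbp1 untested.

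Transcripts were read in sensory epithelia of wild type C3H mice at postnatal day 2, on 3 arrays of cochlea and 3 arrays of vestibule. The animals carried no transgene or treatment that the labels name, and the tissues were the only groups. Vestibular tissue combined the saccule and utricle with the lateral and anterior cristae, and each array read RNA pooled over several ears. Each tissue kept the mesenchyme below the epithelium and its attached neurons, so that an array reads a mixture of cells. In such bulk samples fewer cells of a type and less RNA per cell cannot be told apart. The sources used here do not say which pool went onto which array, so the spread that the p-values rest on may be technical in part. Values are log2 expression levels from the robust multiarray average (RMA), deposited with 1 decimal, and a difference is vestibule minus cochlea on the log2 scale, given with its standard error (SE) or 95% interval. A probe set was called at a Benjamini-Hochberg adjusted p under 0.1 over all tested probe sets (limma, two-sided) and a fold of at least 1.3. With 3 arrays a tissue, 0.1 is the smallest p that an exact permutation test allows, so single probe sets rest on limma, which draws on the spread of all probe sets.

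IGF-I is a secreted peptide that resembles insulin and acts through the tyrosine kinase receptor encoded by Igf1r, which signals through adaptor proteins to the PI3K-AKT and RAS-MAPK branches. Igf2r encodes a receptor without kinase activity that carries IGF-II and mannose 6-phosphate-tagged enzymes to lysosomes. The binding proteins hold IGFs in the extracellular space, where they can block them, prolong their life or release them once proteases cut the binding protein, and loss of IGF-I is known to cause hearing loss in mice and people.

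The members did not differ in a common direction. Igf1 was higher in the cochlea on each of its 4 probe sets, Igfbp2, Igfbp4, Igfbp6 and Igfbp7 had probe sets higher in the vestibule, and Igf1r and Igfbp3 had no called probe set. In all, 8 of the 24 tested probe sets (33.3%) were higher in the vestibule, against 12% of all tested probe sets, and 6 (25.0%) were higher in the cochlea, against 7.37% of all tested probe sets. These 14 calls came from 7 genes, 4 with vestibular calls and 3 with cochlear calls, and no gene was called both ways. Taking each gene by its brightest probe set, 4 of the 9 tested genes were called towards the vestibule and 1 towards the cochlea, against 15.1% and 7.97% of all tested genes. The arrays of the tissues did not overlap for 13 of the 24 probe sets (54.2%), against 27.4% of all tested probe sets. The median difference of the 24 probe sets was 0, as was that of all tested probe sets. As the members were chosen with earlier results of these data known, the shares above describe this list and do not test for an excess. Probe sets of 1 gene share its transcripts and are not independent of each other. Igfbp4 alone gave 5 of the 8 vestibular calls and Igf1 alone 4 of the 6 cochlear calls.

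**Figure D1:**
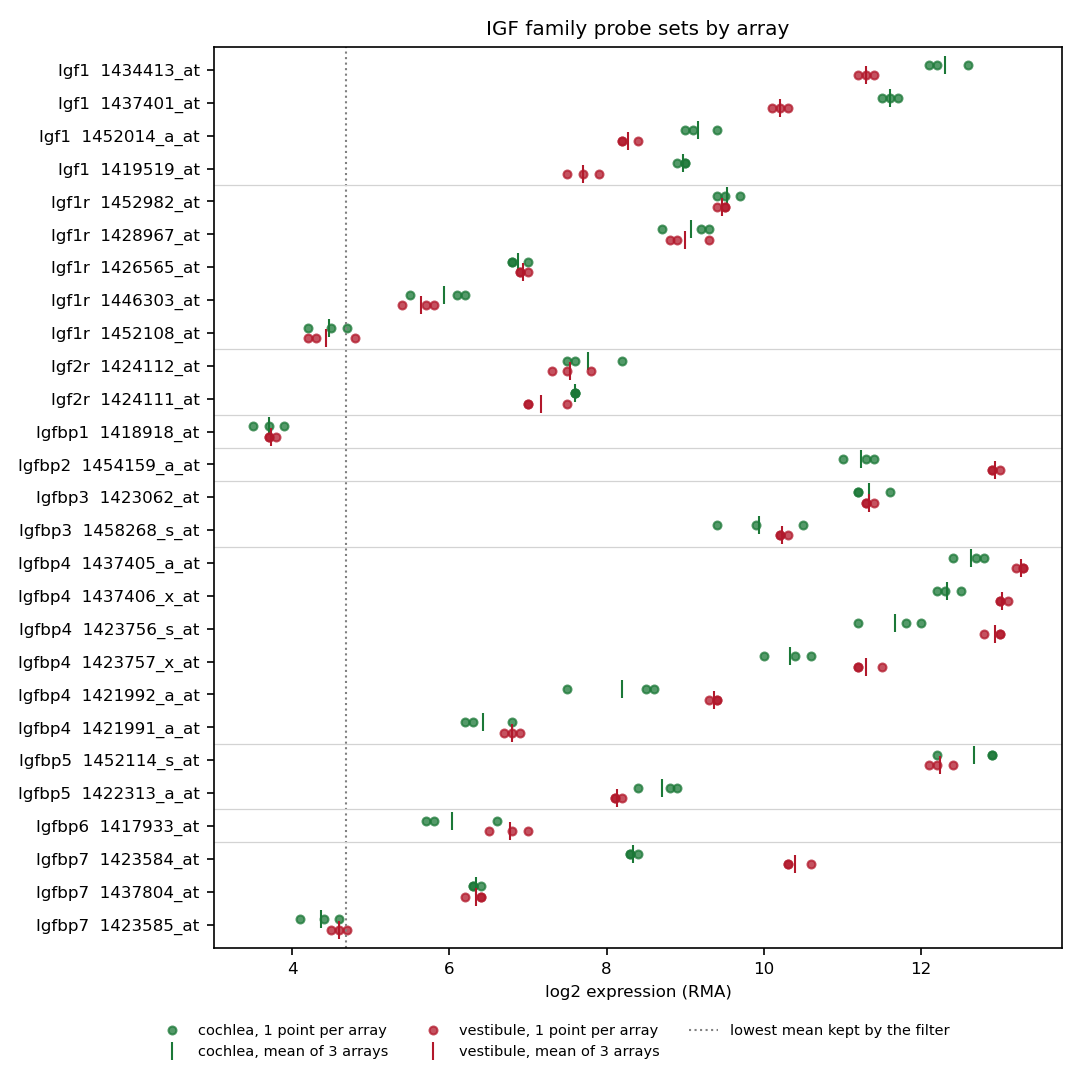
Log2 expression (RMA, x axis) of all 27 IGF family probe sets, with 1 point per array, short lines for the mean of 3 arrays, and a dotted line at 4.68, the lowest mean the filter kept. The cochlear points lie above the vestibular points in each row of Igf1, the reverse holds for Igfbp2 and for the upper row of Igfbp7, and the points mix in the rows of Igf1r.

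Igf1, the ligand gene, lies on chromosome 10. The 250 bases before its RefSeq start (GRCm38.p6, chr10:87860861-87861110, plus strand, 52.8% G and C) are shown because each Igf1 probe set was called, and they hold none of the motifs searched in the family, so no letters are in capitals.

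Igf1 promoter: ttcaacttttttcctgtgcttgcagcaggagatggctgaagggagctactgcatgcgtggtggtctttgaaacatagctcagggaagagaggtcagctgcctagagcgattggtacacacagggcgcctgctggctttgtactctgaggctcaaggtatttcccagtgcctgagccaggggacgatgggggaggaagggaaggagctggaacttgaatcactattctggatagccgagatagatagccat

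On probe set 1434413_at, the brightest for Igf1, the cochlear arrays read 12.2, 12.6 and 12.1 and the vestibular arrays 11.3, 11.4 and 11.2. Every cochlear array was above every vestibular array, and the difference was -1 (SE 0.15, 95% interval -1.34 to -0.66, limma adjusted p = 0.00202), a 2-fold higher level in the cochlea. Probe set 1437401_at read 11.6, 11.7 and 11.5 in the cochlea and 10.3, 10.2 and 10.1 in the vestibule. It gave the largest of the Igf1 differences, -1.40 (SE 0.12, 95% interval -1.66 to -1.14, limma adjusted p = 7.24e-05), or 2.64-fold. Probe set 1452014_a_at read 9.0, 9.4 and 9.1 against 8.2, 8.4 and 8.2, a difference of -0.90 (SE 0.14, limma adjusted p = 0.00223). For 1419519_at the cochlear arrays were at 8.9, 9.0 and 9.0 and the vestibular arrays at 7.7, 7.9 and 7.5, a difference of -1.27 (SE 0.13, limma adjusted p = 2.46e-04). The 4 probe sets thus separated the tissues without overlap, by 1.87-fold to 2.64-fold, and each kept its call under all 17 alternatives run. By its brightest probe set, Igf1 ranked 385 of 14184 tested genes towards the cochlea, and the mean of its probe sets differed by -1.14 (SE 0.11, limma adjusted p = 8.16e-05).

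The other IGF ligand gene, Igf2, is no member here but is read beside Igf1. Its arrays were at 12.4, 12.8 and 12.3 in the cochlea and 12.2, 12.9 and 12.1 in the vestibule. The tissues overlapped, and the difference was -0.10 (95% interval -0.61 to 0.41, limma adjusted p = 0.81).

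Of the receptors, Igf1r was read by 5 probe sets, of which 4 were tested and 0 called by limma, with 0 of the 4 also under an unadjusted p of 0.05 and 0 called by a plain t-test. Probe set 1446303_at read 6.1, 5.5 and 6.2 in the cochlea and 5.8, 5.4 and 5.7 in the vestibule, a difference of -0.30 (95% interval -0.75 to 0.15, limma adjusted p = 0.371). Probe set 1452982_at, the brightest, read 9.5, 9.7 and 9.4 against 9.5, 9.4 and 9.5, a difference of -0.07 (95% interval -0.34 to 0.21). Probe set 1428967_at read 9.2, 9.3 and 8.7 against 9.3, 8.9 and 8.8, a difference of -0.07 (95% interval -0.50 to 0.37). The cochlear and vestibular arrays overlapped in each of these rows. Probe set 1426565_at read 6.8, 6.8 and 7.0 against 7.0, 6.9 and 6.9, a difference of 0.07 (95% interval -0.19 to 0.32). The fifth, 1452108_at, lay below the filter, with cochlear arrays at 4.2 to 4.7 and vestibular ones at 4.2 to 4.8. Each interval of the 4 included 0, and those of the brightest pair together ran from -0.50 to 0.37. Without cochlea replicate 2, the low array of 1446303_at, that probe set was called higher in the cochlea at -0.52 (limma adjusted p = 0.0703).

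Igf2r gave 1 called probe set of 2. Probe set 1424111_at read 7.6 on each cochlear array and 7.5, 7.0 and 7.0 in the vestibule, a difference of -0.43 (SE 0.15, 95% interval -0.78 to -0.09, limma adjusted p = 0.0969). The cochlear arrays lay just above the vestibular ones, by 0.1 at the closest pair. The call was lost under 10 of 17 alternatives, among them the fits without each array except vestibule replicate 1, where the difference was -0.35 to -0.43 (limma adjusted p = 0.164 to 0.304). Probe set 1424112_at read 7.5, 8.2 and 7.6 against 7.5, 7.8 and 7.3, with overlapping arrays and a difference of -0.23 (95% interval -0.70 to 0.23, limma adjusted p = 0.508). The mean of both Igf2r probe sets differed by -0.33 (SE 0.13, limma adjusted p = 0.111) and was not called.

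Among the binding proteins, the promoters of Igfbp2, Igfbp4 and Igfbp7 are shown since these genes had calls towards the vestibule that held when arrays were left out, and that of Igfbp5 since it neighbours Igfbp2 and was not called in the same direction. Each line gives the 250 bases before a RefSeq start on GRCm38.p6, with motifs in capitals. Searched on both strands were TATAAA (the TATA box), GGGCGG (the GC box) and CACGTG (an E-box), and none of the capitals overlap.

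Igfbp2 promoter, chr1:72824230-72824479, plus strand: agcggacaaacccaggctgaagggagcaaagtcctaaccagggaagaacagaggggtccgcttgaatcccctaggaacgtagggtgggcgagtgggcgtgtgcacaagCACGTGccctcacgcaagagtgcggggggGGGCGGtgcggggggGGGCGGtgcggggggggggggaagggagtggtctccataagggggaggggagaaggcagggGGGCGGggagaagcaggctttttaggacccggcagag
Igfbp4 promoter, chr11:99040994-99041243, plus strand: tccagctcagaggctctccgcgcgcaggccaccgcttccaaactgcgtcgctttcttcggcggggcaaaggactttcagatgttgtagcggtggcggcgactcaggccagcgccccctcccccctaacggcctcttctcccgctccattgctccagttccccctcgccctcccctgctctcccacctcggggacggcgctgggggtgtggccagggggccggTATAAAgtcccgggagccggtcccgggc
Igfbp5 promoter, chr1:72874866-72875115, minus strand: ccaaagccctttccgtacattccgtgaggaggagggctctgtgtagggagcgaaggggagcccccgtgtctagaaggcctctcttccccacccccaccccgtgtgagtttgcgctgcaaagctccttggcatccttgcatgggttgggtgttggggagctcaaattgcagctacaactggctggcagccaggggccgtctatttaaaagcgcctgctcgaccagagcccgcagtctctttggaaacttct
Igfbp7 promoter, chr5:77408046-77408295, minus strand: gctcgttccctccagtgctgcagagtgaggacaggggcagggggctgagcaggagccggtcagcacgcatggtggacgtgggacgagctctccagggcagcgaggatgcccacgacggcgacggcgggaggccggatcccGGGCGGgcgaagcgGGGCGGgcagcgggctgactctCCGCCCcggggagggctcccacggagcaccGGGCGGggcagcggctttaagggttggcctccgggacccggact

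The Igfbp2 window held 3 GC boxes and 1 E-box, the Igfbp7 window 4 GC boxes, the Igfbp4 window 1 TATA box that starts 28 bases before the start, and the Igfbp5 window no match. A further Igfbp2 start in the RefSeq table, chr1:72825137-72825386 for the same upstream window, held no match. A GC box was present in 4 of the 11 promoters of the family, against 32.7% of 32851 mouse promoters, a TATAAA match in 2 of 11 against 12.4%, and the E-box in 2 of 11 against 6.02%. The TATAAA match outside Igfbp4 was in the Igfbp6 window, 148 bases before the start and on the opposite strand. G and C made up 67.2% of the Igfbp2 window, 69.2% of that of Igfbp4, 74.0% of that of Igfbp7 and 58.8% of that of Igfbp5. These are matches of letters only.

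Igfbp7, which encodes a secreted protein of the vessel wall and basement membrane that binds IGFs weakly, had the largest difference of the family. Probe set 1423584_at read 8.4, 8.3 and 8.3 in the cochlea and 10.6, 10.3 and 10.3 in the vestibule. The gap between the closest arrays was wider than the spread within a tissue, and the difference was 2.07 (SE 0.12, 95% interval 1.78 to 2.35, limma adjusted p = 1.27e-05), or 4.19-fold. By this probe set Igfbp7 ranked 159 of 14184 tested genes towards the vestibule, and over 17 alternatives the difference stayed between 1.97 and 2.12 and was called in each. The gene's other probe sets did not show it. Probe set 1437804_at read 6.4, 6.3 and 6.3 against 6.4, 6.2 and 6.4, a difference of 0.00 (95% interval -0.26 to 0.26). Probe set 1423585_at lay below the filter, with cochlear arrays at 4.1 to 4.6 and vestibular ones at 4.5 to 4.7. The mean of both tested probe sets differed by 1.03 (SE 0.10, limma adjusted p = 8.56e-05).

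Igfbp2, a binding protein abundant in fetal tissue, was read by 1 probe set, 1454159_a_at. The cochlear arrays were at 11.3, 11.4 and 11.0 and the vestibular arrays at 12.9, 13.0 and 12.9. All vestibular arrays lay above all cochlear arrays, and the difference was 1.70 (SE 0.13, 95% interval 1.40 to 2.00, limma adjusted p = 5.13e-05), or 3.25-fold. Igfbp2 ranked 272 of 14184 genes towards the vestibule. The call was kept under all 17 alternatives, with differences of 1.58 to 1.78.

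Igfbp4, a binding protein that the protease PAPP-A cuts in the presence of IGF, was read by 6 probe sets, and 5 of them were called higher in the vestibule. The brightest, 1437405_a_at, read 12.8, 12.7 and 12.4 in the cochlea and 13.3, 13.3 and 13.2 in the vestibule, a difference of 0.63 (SE 0.13, 95% interval 0.33 to 0.93, limma adjusted p = 0.0113), or 1.55-fold. Probe set 1437406_x_at read 12.5, 12.3 and 12.2 against 13.1, 13.0 and 13.0, a difference of 0.70 (SE 0.12, limma adjusted p = 0.00409). Probe set 1423756_s_at read 12.0, 11.8 and 11.2 against 13.0, 13.0 and 12.8, a difference of 1.27 (SE 0.20, limma adjusted p = 0.00249), or 2.41-fold. These 3 rows had no overlap between the tissues, and the size of the difference varied between probe sets of the same gene. For 1423757_x_at the cochlea was at 10.6, 10.4 and 10.0 and the vestibule at 11.2, 11.5 and 11.2, a difference of 0.97 (SE 0.17, limma adjusted p = 0.00496). For 1421992_a_at the cochlea was at 8.6, 8.5 and 7.5 and the vestibule at 9.3, 9.4 and 9.4, a difference of 1.17 (SE 0.26, limma adjusted p = 0.0157). The dimmest, 1421991_a_at, read 6.8, 6.2 and 6.3 against 6.7, 6.9 and 6.8, overlapped, and was not called at 0.37 (95% interval -0.01 to 0.75, limma adjusted p = 0.191). Probe sets ending in _x_at or _s_at can also bind other transcripts, and without them 3 Igfbp4 probe sets are left, 2 of them called. Cochlea replicate 3 gave the lowest value on each of the 5 called probe sets. Without this array the 5 differences were 0.52, 0.63, 1.03, 0.80 and 0.82 in the order given, and each stayed called. The last of these, 1421992_a_at, lost its call without vestibule replicate 3 (1.15, limma adjusted p = 0.102), and the uncalled 1421991_a_at gained one without cochlea replicate 1 (0.55, limma adjusted p = 0.0325).

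Igfbp6, whose product prefers IGF-II over IGF-I, had 1 probe set, 1417933_at, at 5.7, 6.6 and 5.8 in the cochlea and 6.8, 7.0 and 6.5 in the vestibule. It was called higher in the vestibule at 0.73 (SE 0.24, 95% interval 0.19 to 1.28, limma adjusted p = 0.0767), although the highest cochlear array lay above the lowest vestibular one, the single overlap among the 14 called probe sets. The call was lost under 9 of 17 alternatives. Of the 6 fits that left out an array, it held in the 1 without cochlea replicate 2 (1.02, limma adjusted p = 0.0155), and in the other 5 the difference was 0.57 to 0.87 (limma adjusted p = 0.137 to 0.273).

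Igfbp5, whose product binds to matrix and bone mineral, had a probe set called in the other direction. Probe set 1422313_a_at read 8.9, 8.4 and 8.8 in the cochlea and 8.1, 8.2 and 8.1 in the vestibule, without overlap. It was called higher in the cochlea at -0.57 (SE 0.15, 95% interval -0.90 to -0.23, limma adjusted p = 0.0306), or 1.48-fold, and lost the call under 6 of 17 alternatives. Among them were the fits without cochlea replicate 1 or 3 or vestibule replicate 1 or 3, where the difference was -0.47 to -0.55 (limma adjusted p = 0.111 to 0.139). The brighter 1452114_s_at read 12.9, 12.9 and 12.2 against 12.4, 12.2 and 12.1 and was not called at -0.43 (95% interval -0.88 to 0.02, limma adjusted p = 0.193). Cochlea replicate 3 stood with the vestibular arrays here, and without it the difference was -0.67 (limma adjusted p = 0.0214). The mean of both probe sets differed by -0.50 (SE 0.12, limma adjusted p = 0.0148). Igfbp2 and Igfbp5 are next to each other among the protein-coding genes of chromosome 1, on opposite strands, with Igfbp2 higher in the vestibule and 1 of the 2 Igfbp5 probe sets higher in the cochlea.

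Igfbp3, the main carrier of IGFs in blood, had 0 of 2 probe sets called by limma, with 0 under an unadjusted p of 0.05 and 0 called by the plain t-test. Probe set 1423062_at read 11.2, 11.6 and 11.2 in the cochlea and 11.4, 11.3 and 11.3 in the vestibule, a difference of 0.00 (95% interval -0.31 to 0.31). Probe set 1458268_s_at read 9.9, 10.5 and 9.4 against 10.3, 10.2 and 10.2, a difference of 0.30 (95% interval -0.25 to 0.85, limma adjusted p = 0.466). The cochlear arrays of the latter spread on both sides of the vestibular ones, and without cochlea replicate 2 it was called higher in the vestibule at 0.58 (limma adjusted p = 0.0716). Igfbp1, a liver-made binding protein whose gene is the neighbour of Igfbp3 on chromosome 11, read 3.7, 3.5 and 3.9 in the cochlea and 3.8, 3.7 and 3.7 in the vestibule. All 6 values were below 4.68, the lowest mean the filter kept, with a difference of 0.03 (95% interval -0.25 to 0.31) in a fit without the filter.

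**Figure D2:**
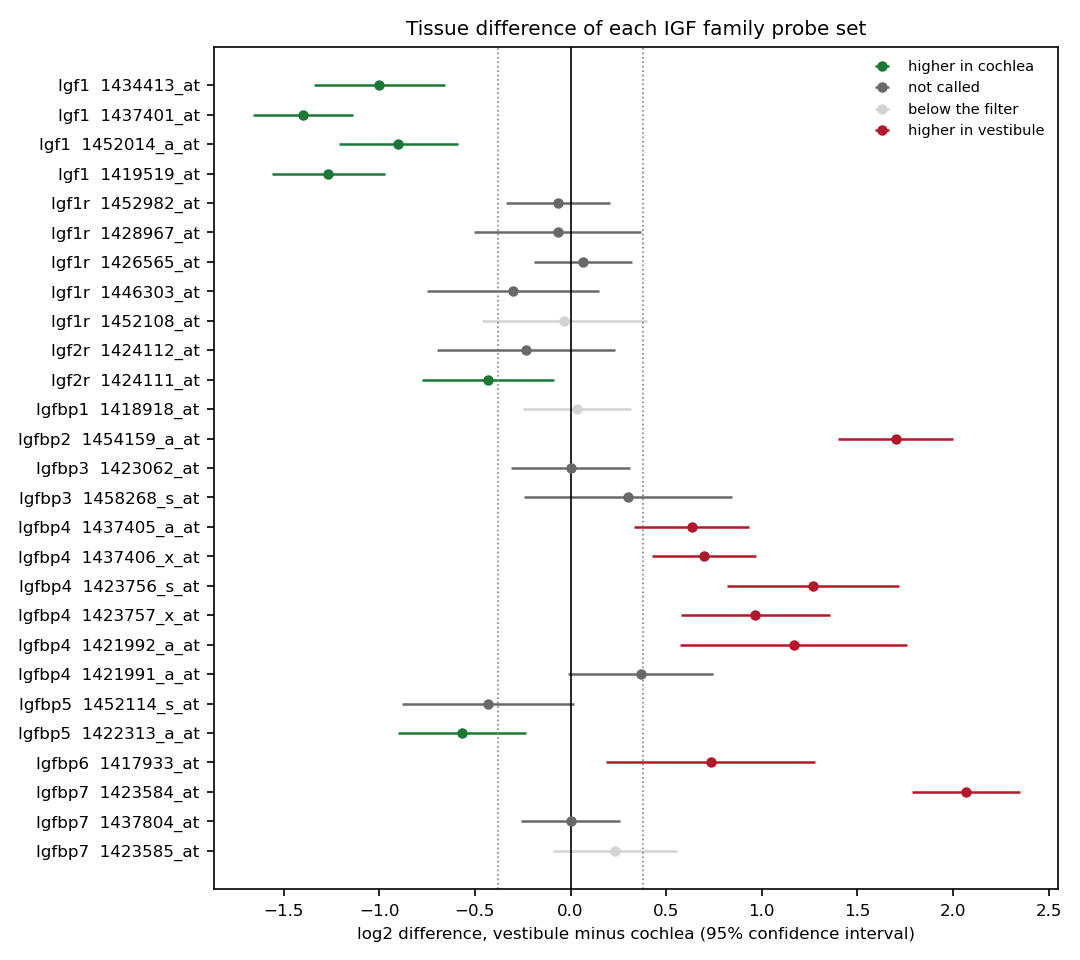
Difference between vestibule and cochlea (log2, x axis) of the 27 IGF family probe sets with 95% intervals, coloured by call, with dotted lines at the 1.3-fold threshold. The 4 intervals of Igf1 lie left of 0, those of Igfbp2 and of 1423584_at of Igfbp7 lie to the right, at 1.70 and 2.07, and the Igf1r intervals span 0.

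Around the family, 64 further genes of the pathway were listed, of which 52 had a probe set that was tested and 2 lay below the filter, with the other 10 not analysed here. By the brightest probe set of each, 7 of the 52 (13.5%) were called towards the vestibule and 6 (11.5%) towards the cochlea, against 15.1% and 7.97% of all tested genes, and 39 were not called. The balance depended on the scaling, with 5 towards the vestibule and 8 towards the cochlea under median centring, and 5 and 9 under a repeated quantile normalization. The calls over all tested probe sets shifted the same way, from 3563 and 2184 to 3154 and 2550, and to 3249 and 2847. The median difference of the 52 genes was 0.03, the same as over all tested genes. The pathway genes too were listed with earlier results of these data known, so these shares are a description. Of the 13 called genes, 6 encode secreted or surface proteins around the ligand and 5 encode adaptors or inhibitors at the receptor.

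The genes that act on the binding proteins held the largest difference of the pathway. Pappa2, which encodes the protease pappalysin-2 that cuts IGFBP-3 and IGFBP-5, read 9.5, 9.2 and 9.0 in the cochlea and 5.5, 5.2 and 5.2 in the vestibule. The difference was -3.93 (SE 0.16, 95% interval -4.29 to -3.58, limma adjusted p = 1.74e-06), with no overlap. The vestibular values lay below the array medians of 5.6 to 5.7 and are not shown to be above background, so the difference could be larger than measured. The vestibular values of Pappa and Igfbpl1 also lay below these medians. Their cochlear values, 5.3 to 6.0 for Pappa and 5.6 to 5.9 for Igfbpl1, were near the medians and are not shown to be above background either. Stc1, which encodes stanniocalcin-1, an inhibitor of these proteases, read 9.0, 8.5 and 8.6 against 7.5, 7.4 and 7.4, a difference of -1.27 (SE 0.15, limma adjusted p = 4.8e-04). Pappa, which encodes the IGFBP-4 protease PAPP-A, read 5.3, 5.7 and 6.0 against 4.9, 5.1 and 5.1, a difference of -0.63 (SE 0.18, limma adjusted p = 0.0422). Pappa lost its call when any array but cochlea replicate 1 was left out, with differences of -0.47 to -0.67 (limma adjusted p = 0.118 to 0.194), while Pappa2 and Stc1 were called under all 17 alternatives. The other 3 tested genes of this group, Stc2, Mmp2 and Prss23, were not called, with differences of 0.07, 0.07 and -0.37, and the median of the 6 was -0.50. Of these Prss23, a serine protease gene, missed the fold and not the adjusted p (limma adjusted p = 0.0761), and it was called without cochlea replicate 2 (-0.43). Of the genes for secreted partners, Htra1, a serine protease gene, was higher in the vestibule by 0.73 (SE 0.19, limma adjusted p = 0.0305), with both of its probe sets called. The brighter lost the call without cochlea replicate 2 or 3 or vestibule replicate 1 or 2, at 0.62 to 0.72 (limma adjusted p = 0.112 to 0.166). Igfals, which encodes the acid-labile subunit of the circulating complex, was higher in the vestibule by 0.47 (SE 0.11, limma adjusted p = 0.021), on cochlear arrays of 5.5, 5.3 and 5.4 and vestibular arrays of 5.9, 5.8 and 5.9. Its cochlear values lay below the array medians and its vestibular values close above them, so neither is shown to be above background. Igfbpl1, which encodes a secreted protein related to the binding proteins and was listed with the ligands, was higher in the cochlea, at -0.80 (SE 0.12, limma adjusted p = 0.00197).

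At the receptors, Insr, the insulin receptor gene, and Insrr, a related receptor gene, were not called by limma, at -0.07 and 0.07, nor under an unadjusted p of 0.05. Of 12 tested genes for adaptors and their inhibitors, 3 (25.0%) were called towards the vestibule and 2 (16.7%) towards the cochlea. Over all tested genes these shares were 15.1% and 7.97%. The other 7 were not called. Irs1, the gene of a docking protein below the IGF-I and insulin receptors, read 10.3, 10.3 and 10.0 in the cochlea and 11.5, 11.4 and 11.4 in the vestibule. This was a difference of 1.23 (SE 0.12, 95% interval 0.95 to 1.52, limma adjusted p = 2.16e-04), with no overlap. Socs3, a feedback inhibitor of cytokine signalling, was higher in the vestibule by 0.60 (limma adjusted p = 0.0126, 2 of 3 probe sets called), and Shc1, an adaptor to RAS, by 0.53 (limma adjusted p = 0.0989), with overlapping arrays. The call of Shc1 held in 1 of the 6 fits that left out an array, that without cochlea replicate 2, and in the other 5 its difference was 0.43 to 0.65 (limma adjusted p = 0.143 to 0.298). The adaptors Grb10 and Grb14, which restrain insulin and IGF receptors, were higher in the cochlea, Grb10 at -0.67 (SE 0.12, limma adjusted p = 0.00531) and Grb14 at -0.77 (SE 0.14, limma adjusted p = 0.0061).

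In the PI3K-AKT-mTOR branch 1 of 17 genes (5.88%) was called towards the vestibule and 0 towards the cochlea, against 15.1% and 7.97% of all tested genes. The called gene was Pdk1, at 0.43 (limma adjusted p = 0.0853, 1 of its 4 probe sets). It was lost under 13 of 17 alternatives, and without cochlea replicate 1 it held, while without any other array the difference was 0.28 to 0.48 (limma adjusted p = 0.108 to 0.264). This symbol stands for pyruvate dehydrogenase kinase, an enzyme of glucose use. The only call of this group, also counted among the 7 vestibular pathway calls, is thus not of a PI3K-AKT-mTOR component. The kinase that phosphorylates AKT and was once known by the same name is Pdpk1, also in the list, at -0.03 (limma interval -0.33 to 0.26). In the RAS-MAPK branch 1 of 4 (25.0%) was called, Map2k1, which encodes the kinase MEK1, at 0.60 (SE 0.13, limma adjusted p = 0.0126). No gene of the growth hormone axis (3 tested) or of the IGF mRNA-binding proteins (2 tested) was called by its brightest probe set. At an unadjusted p of 0.05 these groups held 1 (Stat5b, higher in the vestibule by 0.30) and 2 genes (Igf2bp1 at -0.47 and Igf2bp3 at -0.30). Among the 39 genes not called, 5 had a dimmer probe set that was: Akt2 and Foxo1 towards the vestibule, and Igf2bp1, Pik3r1 and Nras towards the cochlea. When a gene's probe sets were averaged, Pdk1 and Shc1 were no longer called.

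**Figure D3:**
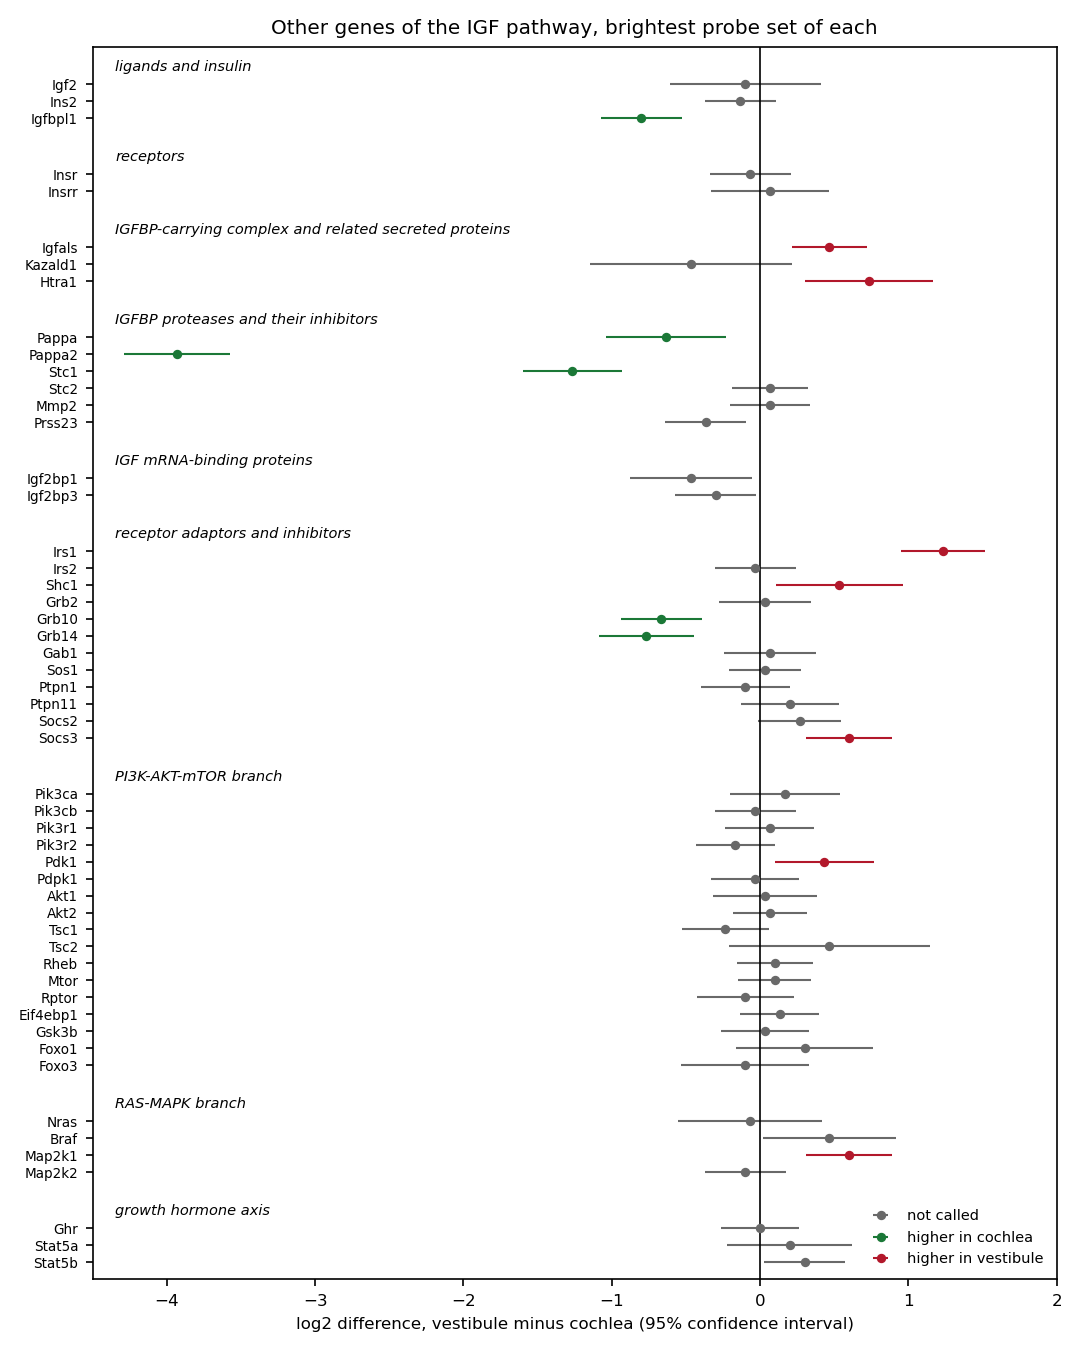
Difference between vestibule and cochlea (log2, x axis) of the 52 tested pathway genes by their brightest probe set, with 95% intervals and colour by call, grouped by role. Pappa2 stands apart at -3.93, Irs1 lies at 1.23, and most genes of the PI3K-AKT-mTOR branch have intervals that include 0.

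The tissues also differed in markers of their cell types, which were listed to read beside these results. The marker lists were also chosen with earlier results of these data known, so their shares are a description. The hair cell gene Myo7a read 7.7, 8.0 and 7.6 on the cochlear arrays and 9.3, 9.1 and 9.3 on the vestibular ones. The supporting cell gene Sox2 read 11.0, 11.1 and 10.8 against 10.8 on each vestibular array. Both genes were chosen after their values were seen and show only that these markers were read in both tissues. They do not stand for their lists. Sox2 differed by -0.17, where the median of the supporting cell list was -0.83. Myo7a differed by 1.47, where the median of the hair cell list was 1. Of the hair cell list, 5 of 9 tested genes were called towards the vestibule and 1 towards the cochlea, and of the supporting cell list 1 of 8 and 4 of 8. Over all tested genes these shares were 15.1% and 7.97%, so that the vestibular share of the supporting cell list (12.5%) was near that of all genes. Most markers of vessels, immune cells and pigment cells were higher in the vestibule. Of 9 endothelial genes 7 were called towards the vestibule and 1 towards the cochlea, and the mean of the list was 6.84 to 7.04 on the cochlear arrays and 7.91 to 8.12 on the vestibular ones. All but 1 of 8 macrophage genes were higher in the vestibule, with a list mean of 6.49 to 6.76 against 7.89 to 8.21. All 6 melanocyte genes were higher in the vestibule, at 5.93 to 6.52 against 7.73 to 7.97. Of 8 genes of pericytes and smooth muscle, 4 were called towards the vestibule and 1 towards the cochlea, at 7.03 to 7.34 against 7.55 to 7.71.

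For mesenchyme and fibroblasts, 6 of 10 genes were called towards the vestibule and 1 towards the cochlea, with a list mean of 10.68 to 11.08 against 11.27 to 11.41. For cartilage and bone 5 of 7 were called towards the vestibule and 1 towards the cochlea, at 7.40 to 8.06 against 8.27 to 8.47, and for Schwann cells 2 of 5 and 1 of 5, at 9.80 to 10.04 against 10.28 to 10.72. The neuronal list went the other way, with 6 of 7 genes higher in the cochlea and 0 in the vestibule, at 8.51 to 9.07 against 7.31 to 7.60. Among the cochlear arrays, replicate 3 had the lowest mean for 6 of the 10 lists (hair cells, mesenchyme, cartilage and bone, endothelium, Schwann cells and macrophages), and it also had the lowest value on the 5 called Igfbp4 probe sets. These lists moved in the same comparison as Igf1, Igfbp2, Igfbp4 and Igfbp7, and their part in those differences was not tested.

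**Figure D4:**
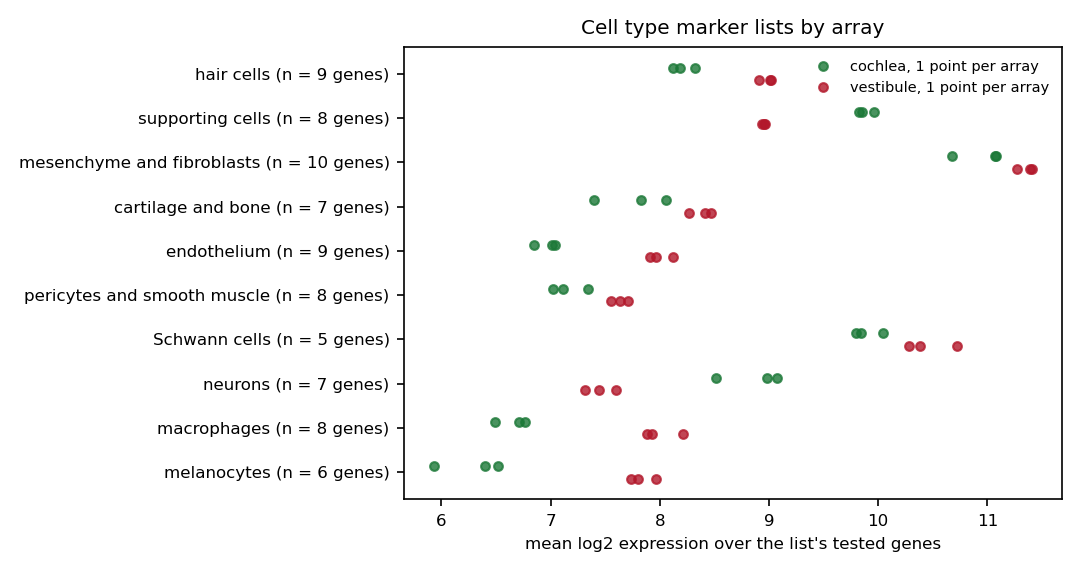
Mean log2 expression (x axis) over the tested genes of each of 10 cell type marker lists, with 1 point per array. The vestibular points lie above the cochlear points for 8 lists and below them for supporting cells and neurons, and no list overlaps between the tissues.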

How the data were processed

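Total RNA from pooled cochlear or vestibular sensory epithelia was amplified in 2 cycles and hybridised by the authors to Affymetrix mouse genome arrays. The deposited log2 values are RMA levels that the authors quantile-normalized across arrays, and they were used without rescaling. The sources used here name RMA and MAS5 (the latter for Present calls) with no version. Values run from 2.8 to 15 with array medians of 5.6 to 5.7, and no array was a copy of another, since pairs of arrays shared 12.0% to 21.4% of values to 1 decimal. The number of arrays, 3 per tissue, limits the precision.

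Platform annotation named 1 gene for 34945 probe sets, several for 932 and none for 9160, and 34741 symbols were updated through the Entrez number. With 64 control probe sets set aside, the 29636 with the highest mean log2 value, the number the study kept by Present calls, were fitted with limma 3.58.1 (lmFit, eBayes, two-sided) in R 4.3.3 with the package data.table, version 1.17.8. Scripts were tested on simulated data. Promoters came from RefSeq tables for GRCm38.p6, and figures from Python 3.11.15, pandas 2.3.3, numpy 2.4.6 and matplotlib 3.10.9. Confidence intervals are at 95%. Pathway and marker genes are given by their brightest probe set.

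All family probe sets are named, and of each pathway group up to 4 called genes with the largest differences, beside genes that spell out a count of 5 or fewer, such as Shc1, Insr, Insrr, Stc2, Mmp2 and Prss23. Igf2, Pdpk1, Myo7a and Sox2 fall outside this rule and were chosen after their values were seen. The members, the pathway groups and the marker lists were chosen with earlier results of these data known. Alternatives were no filter, a filter of 20000 probe sets, median centring, a repeated quantile normalization, limma with a trend, limma with array weights, a plain t-test, a block for the replicate number, random noise of up to 0.05 on each value, leaving out each array, a stricter adjusted p of 0.05, dropping the minimum fold, dropping _x_at and _s_at probe sets, and averaging the probe sets of a gene.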

Additional observations from a re-analysis of the deposited data

How the results depend on the processing

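No called value changed direction under any alternative run. Differences of Igf1, Igfbp2, 4 of the 6 Igfbp4 probe sets and 1423584_at of Igfbp7 were called under all 17 alternatives, and the calls lost elsewhere belong to Igf2r, Igfbp6, 1422313_a_at of Igfbp5 and 1421992_a_at of Igfbp4, and in the pathway to Pappa, Htra1, Shc1 and Pdk1. Without _x_at and _s_at probe sets, 5 family probe sets in place of 8 were higher in the vestibule, since fewer were left. Under the plain t-test, 4 pathway genes in place of 7 were higher in the vestibule, and over all probe sets 2195 in place of 3563 were called towards the vestibule and 1322 in place of 2184 towards the cochlea. The cause of the latter was not tested.

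Leaving out each array in turn, 6 to 9 family probe sets were called towards the vestibule and 4 to 6 towards the cochlea, and 4 to 6 pathway genes towards the vestibule and 5 to 6 towards the cochlea, where the 4 vestibular calls came without cochlea replicate 3, vestibule replicate 1 or vestibule replicate 2. Over all probe sets the counts were 2359 to 3865 and 1415 to 2787, with both lowest values without vestibule replicate 1. Median centring and the repeated quantile normalization each moved the median of all differences by -0.03.

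Arrays of the same replicate number correlated in their deviations from the tissue means at 0.22, 0.15 and -0.00055, so the numbers were not taken to pair the arrays. Cochlea replicates 1 and 2 correlated best with their own number and replicate 3 did not. With the replicate block, 7 family probe sets were called towards the vestibule and 4 towards the cochlea, 6 and 6 pathway genes, and 2886 and 1796 of all probe sets.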
